A study of Homo sapiens with 8 samples.

Results

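Genes of cholesterol synthesis, uptake and efflux were followed in 2 human cell lines of clear cell renal cell carcinoma (RCC). The lines, 769-P and CAKI-1, were cultured with or without branched-chain amino acids (BCAAs). The 31 genes were chosen by name from 27776 genes listed for either line. They leave out some well known genes of the pathway, which were not analysed. All 31 are listed in 769-P and 30 in CAKI-1, where ABCG1 is not listed. Cells of both lines were kept for 16 hours in medium that the study calls BCAA-depleted, made from RPMI powder free of amino acids and with dialyzed serum. BCAAs were returned to it (isoleucine and leucine at 0.38 mM each, valine at 0.17 mM) or not. The study does not state whether the other amino acids were added. Before the treatment 769-P was grown in RPMI medium and CAKI-1 in MEM, so the line and its routine medium cannot be told apart, and the labels name no genetic change made to either. RNA was sequenced in 8 libraries, 2 for each condition and line, and the labels do not say whether the 2 came from separate cultures. The p-values therefore measure only the spread between these libraries, which may be technical. The study's legend for its RNA-seq comparison states more replicates per group than were analysed here.

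Animal cells build cholesterol from acetyl-CoA through mevalonate, squalene and lanosterol, and also take it up from lipoproteins through lysosomes. When sterols in the endoplasmic reticulum (ER) run low, the escort protein SCAP carries the membrane-bound transcription factors SREBP-1 and SREBP-2 to the Golgi, where they are cut free to switch on the genes of synthesis and uptake, while INSIG proteins hold SCAP back when sterols are plentiful. Excess sterol instead activates the LXR receptors, which switch on export pumps such as ABCA1 and ABCG1 and MYLIP, a ubiquitin ligase that degrades lipoprotein receptors. Clear cell RCC, the most common renal cancer, is known for cells filled with lipid and cholesteryl ester.

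The region before the start site of these genes is shown first, since SREBP binds there together with general factors. Windows of 300 bases, from 250 bases before to 50 after each RefSeq start (GRCh38.p14), were searched on both strands for the sterol regulatory letters TCACNCCA, the CCAAT box, read by NF-Y, and GGGCGG, read by Sp1. At least 1 window was held for 27 of the 31 genes (not for ACAT2, FDFT1, SQLE and ABCG1). Some genes had more than 1, up to 3 for IDI1 and LPIN1. A gene was counted if any of its windows held a match, so genes with more windows had more chances of one. The sterol regulatory letters stood in the windows of MSMO1, MVK and SREBF2, which is 11.1% of the 27, and in those of 4.8% of 27305 genes. In the lines below, capitals mark these letters and CCAAT or its reverse complement ATTGG. MSMO1 is drawn from chr4:165327477-165327556 on the + strand, MVK from chr12:109573588-109573617 and SREBF2 from chr22:41832961-41832990, both also on the + strand. The MSMO1 match begins at position -156 from the start site, that of MVK at -195 and that of SREBF2 at -133. The MVK stretch lies within annotated exons of MMAB and of MVK, whose annotated gene begins earlier, at 109573255. The SREBF2 stretch lies within an exon of SREBF2-AS1, and that of MSMO1 outside annotated exons.
MSMO1: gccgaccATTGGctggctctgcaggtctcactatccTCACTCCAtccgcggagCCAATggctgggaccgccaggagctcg
MVK: gttcgcagttcTCACCCCAgggcgggacac
SREBF2: atgacgcgccaTCACCCCAcgcaccgcttc

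The CCAAT box was found for 19 of the 27 genes (70.4%), against 39.7% of all genes with a window. Among genes that SREBP is known to drive (the 18 synthesis enzymes with INSIG1, STARD4 and LPIN1) it was in 15 of 18, or 83.3%, and among the other members in 4 of 9, or 44.4%. GGGCGG was in 26 of the 27 (96.3%), with NSDHL as the exception, and in 48.3% of all genes. The windows of 3 genes with CCAAT but without the sterol regulatory letters are shown because these genes rose in 769-P and differed between the lines, and the stretch shown lies outside annotated exons. STARD4 is from chr5:111512625-111512701 on the - strand, INSIG1 from chr7:155297672-155297748 and HSD17B7 from chr1:162790614-162790690 on the + strand. Capitals again mark CCAAT or ATTGG.
STARD4: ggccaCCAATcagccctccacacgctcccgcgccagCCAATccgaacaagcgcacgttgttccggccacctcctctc
INSIG1: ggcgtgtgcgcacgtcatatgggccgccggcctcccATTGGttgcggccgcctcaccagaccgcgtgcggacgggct
HSD17B7: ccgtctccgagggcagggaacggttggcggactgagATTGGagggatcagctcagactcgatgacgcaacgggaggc
A match of letters is a description and not a bound site. The 3 genes with the sterol regulatory letters had log2 fold changes with BCAA from 0.68 to 1.23 in 769-P, and the 24 without them from -0.88 to 2.79. In CAKI-1 the ranges were 0.16 to 0.29 with the letters and -0.44 to 0.82 without.

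The deposited value of a gene is its reads divided by 1 size factor per library, called the normalized value here. It is not divided by gene length, and each line was normalized on its own, so values were compared between conditions within a line. Between 30979773 and 64256834 reads per library lay on listed genes. In 769-P the libraries with BCAA were the deeper ones (55829324 or more reads, against 40130258 or fewer), so depth and condition went together there. The renal markers PAX8, KRT8, KRT18 and VIM were present in every library of both lines, while PAX2 was present in 769-P and is not listed in CAKI-1. None of 7 markers of leukocytes, endothelium and smooth muscle had more than 12 reads in a library, where listed.

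In 769-P cells, most of the cholesterol synthesis enzymes followed here were higher with BCAA. Of the 18 enzymes, 16 rose, with STARD4, INSIG1, SREBF1, SREBF2, SOAT1 and LPIN1 beside them, and NPC1, ABCA1 and INSIG2 fell. That made 22 of 31 genes higher and 3 lower, where 20.3% of the 22391 genes tested were higher and 18.2% were lower with BCAA. The median log2 fold change was 0.72 over the 31 genes and -0.02 over all genes tested. Genes were called at an adjusted p under 0.05 in limma with Benjamini-Hochberg adjustment over all genes, and a log2 fold change is that of the value plus 1, with BCAA minus without, ± its standard error. With reads thinned to 30979773 in every library, 22 genes were again higher and 3 lower, where 19.7% and 18.2% of all genes were. Leaving out each of the 4 libraries in turn left 1 library in a group, and fewer genes were called across the genome. Without 1 library, the log2 fold changes were 0.39 to 0.51 for FDPS, 0.84 to 1.06 for HSD17B7, 0.59 to 0.84 for LSS and 0.29 to 0.40 for MVD. They were 1.03 to 1.42 for MVK, 0.28 to 0.46 for PMVK, 0.40 to 0.47 for SC5D and 0.33 to 0.39 for SOAT1. Each of these genes missed the threshold at least once. With the spread taken from the other 7 libraries of both lines, LSS alone of these genes missed the threshold.

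In CAKI-1 fewer of these genes were called. Of the 30 genes tested, 9 rose with BCAA (ACAT2, HMGCS1, IDI1, FDPS, SQLE, EBP, DHCR7, SREBF2 and STARD4) and none was called lower, while 10.8% of the 21347 genes tested were higher and 9.05% were lower. At an unadjusted p under 0.05 in limma, 14 genes were higher and 2 (NPC1 and ABCA1) lower. The share over all genes at that cutoff was not counted, so these counts cannot be read against a background. NPC1 and ABCA1 were called lower by edgeR on the recovered reads, and NPC1 by DESeq2. Over all genes tested, 10.1% were lower with edgeR and 7.94% with DESeq2. The median log2 fold change was 0.18 over the 30 genes and -0.01 over all genes. All 9 genes that rose in CAKI-1 had also risen in 769-P. Leaving out any 1 of the 4 CAKI-1 libraries left 1 residual degree of freedom, and calls were lost across the genome, those of these 9 genes among them. Without 1 library, the log2 fold changes were 0.68 to 0.82 for ACAT2, 0.33 to 0.49 for HMGCS1, 0.67 to 0.74 for IDI1, 0.43 to 0.46 for FDPS and 0.34 to 0.38 for SQLE. They were 0.70 to 0.77 for EBP, 0.54 to 0.65 for DHCR7, 0.24 to 0.33 for SREBF2 and 0.68 to 0.97 for STARD4.

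**Figure D1:**
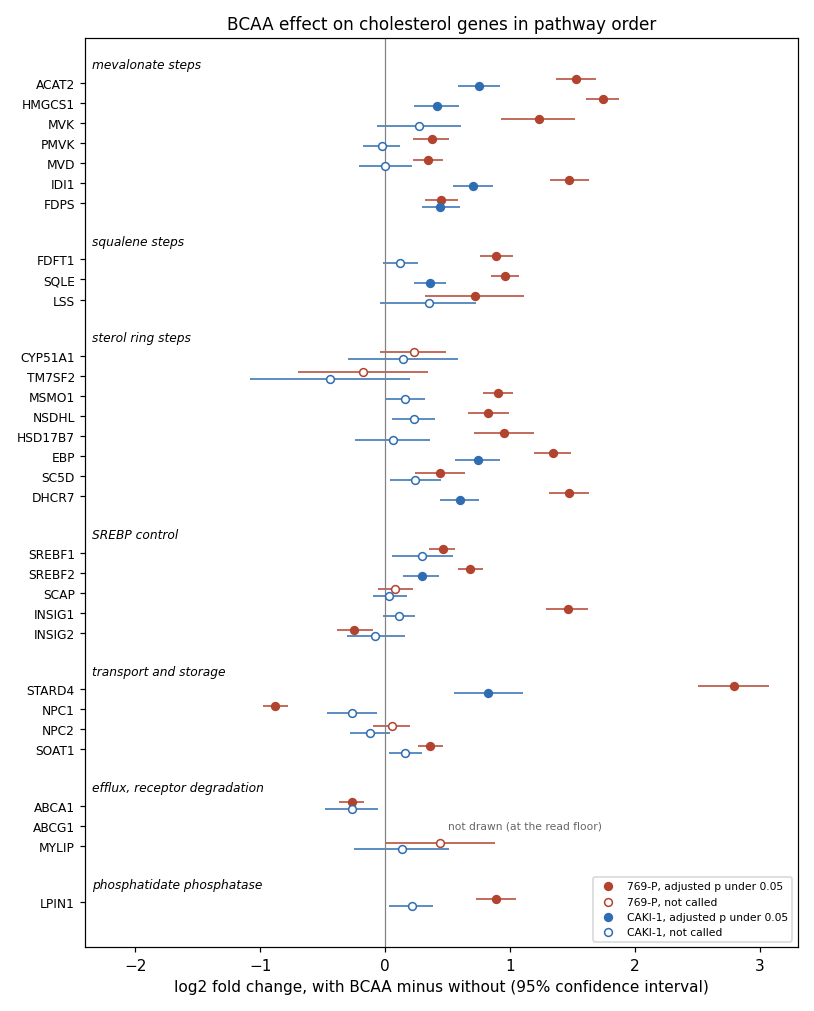
Log2 fold change (with BCAA minus without) of each cholesterol gene on the horizontal axis, with its 95% confidence interval from limma, for 769-P (red) and CAKI-1 (blue). Filled points were called at an adjusted p under 0.05. Genes are in pathway order, and the red points lie to the right of the blue ones for all 18 enzymes.

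The genes grouped as mevalonate steps act between acetyl-CoA and the isoprenoid farnesyl diphosphate, without covering every step, and rose in 769-P. All 7 genes were called higher there, with a median log2 fold change of 1.23, and 4 of 7 in CAKI-1, with a median of 0.41. HMGCS1, which makes HMG-CoA, had normalized values of 3896 and 4111 with BCAA and of 1211 and 1187 without in 769-P. In CAKI-1 its values were 1520 and 1357 with BCAA and 1100 and 1066 without. Libraries with BCAA were the higher ones in both lines, with no overlap, by a log2 fold change of 1.74 ± 0.06 in 769-P and of 0.41 ± 0.08 in CAKI-1. ACAT2, the cytosolic acetoacetyl-CoA thiolase, stood at 1808 and 1815 with BCAA and at 647 and 604 without in 769-P. The CAKI-1 libraries held 2261 and 2059 with BCAA, and 1324 and 1242 without. The conditions were again apart in both lines, by log2 fold changes of 1.53 ± 0.07 and 0.75 ± 0.08. Since 52.3% of the exon bases of ACAT2 are shared with genes on the other strand (SOD2 and TCP1 among them), and the sources used here do not say whether counting used strand, its reads may include some of theirs.

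IDI1, the isomerase that supplies the allylic building block, had values of 3301 and 3744 with BCAA and 1217 and 1315 without in 769-P. The corresponding values in CAKI-1 were 1854 and 1845, and 1109 and 1166. Its libraries did not overlap in either line, and the log2 fold changes were 1.47 ± 0.07 and 0.70 ± 0.07. MVK, mevalonate kinase, was at 572 and 752 with BCAA and at 299 and 262 without in 769-P, and at 238 and 304 against 214 and 233 in CAKI-1. It rose in 769-P (log2 fold change 1.23 ± 0.14) and was not called in CAKI-1 (0.27 ± 0.15, adjusted p = 0.27), where the libraries lay close together without overlap. PMVK and MVD, the phosphorylation and decarboxylation steps that follow, rose by log2 0.37 ± 0.07 and 0.34 ± 0.06 in 769-P, while in CAKI-1 their log2 fold changes were -0.03 ± 0.07 and 0.00 ± 0.09. FDPS, which joins the isoprene units into farnesyl diphosphate, was the member of the group with nearly the same rise in both lines, 0.45 ± 0.06 and 0.44 ± 0.07. FDPS has 8 named pseudogenes, and 18.6% of its exon bases lie under an antisense gene, so reads could be split or shared there.

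The squalene steps commit isoprenoids to sterols. FDFT1, SQLE and LSS all rose in 769-P, with a median log2 fold change of 0.89, and SQLE alone was called in CAKI-1. SQLE, squalene epoxidase, a rate-limiting enzyme of the later pathway, had values of 7115 and 7546 with BCAA and 3851 and 3685 without in 769-P, and of 3687 and 3623 against 2803 and 2890 in CAKI-1. Its conditions were apart in both lines, with log2 fold changes of 0.96 ± 0.05 and 0.36 ± 0.06. FDFT1, squalene synthase, was at 4937 and 5218 with BCAA and 2618 and 2882 without in 769-P, and at 2598 and 2757 against 2470 and 2448 in CAKI-1. FDFT1 rose by log2 0.89 ± 0.06 in 769-P, and its change of 0.12 ± 0.06 in CAKI-1 was not called (adjusted p = 0.23). LSS, which closes squalene epoxide into lanosterol, had lower counts and a wider error, with 0.72 ± 0.18 in 769-P and 0.35 ± 0.18 in CAKI-1. The LSS change in 769-P was not called when any 1 of the 4 libraries was left out (0.59 to 0.84).

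Of the 8 members that act between lanosterol and cholesterol, 6 rose in 769-P and 2 (EBP and DHCR7) in CAKI-1, with median log2 fold changes of 0.86 and 0.19. DHCR7, which carries out a final reduction to cholesterol, was at 2287 and 2276 with BCAA and at 874 and 775 without in 769-P. Its CAKI-1 values were 2138 and 2212 with BCAA, and 1495 and 1383 without. In both lines the libraries with BCAA were all above those without, by log2 1.47 ± 0.07 and 0.60 ± 0.07. EBP, the sterol isomerase also known as emopamil-binding protein, held 2943 and 3214 with BCAA and 1170 and 1266 without in 769-P, and 1250 and 1191 against 726 and 736 in CAKI-1. The log2 fold changes of EBP were 1.34 ± 0.07 and 0.74 ± 0.08, again with no overlap. Per kilobase of exon, EBP moved from rank 13 of 31 without BCAA to rank 5 with BCAA in 769-P.

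MSMO1, a methyl sterol oxidase and one of the genes with the sterol regulatory letters shown above, had values of 3874 and 3950 with BCAA and 2037 and 2162 without in 769-P. In CAKI-1 the values were 1478 and 1399, and 1276 and 1300. MSMO1 libraries did not overlap in either line, but only the change in 769-P was called (log2 0.90 ± 0.06, against 0.16 ± 0.07 in CAKI-1). HSD17B7, which reduces the keto group left by demethylation, was at 607 and 647 with BCAA and 299 and 351 without in 769-P. Its CAKI-1 libraries overlapped, with 254 and 292 with BCAA and 258 and 264 without. The log2 fold changes of HSD17B7 were 0.95 ± 0.11 and 0.06 ± 0.14, and 2 pseudogenes are named after it. NSDHL, its neighbour in the demethylation complex, rose by log2 0.82 ± 0.07 in 769-P, and SC5D, a desaturase, by 0.44 ± 0.09, while in CAKI-1 neither was called (0.23 ± 0.08 and 0.24 ± 0.09). CYP51A1, the lanosterol demethylase, was called in neither line (0.23 ± 0.12 and 0.14 ± 0.20). For CYP51A1, 83.2% of exon bases are shared with other annotated genes, 79.4% on the same strand, so reads in those bases may not have been assigned to it. TM7SF2, a sterol reductase, had values of 41.8 to 79.5 in all libraries and was not called either (-0.18 ± 0.24 and -0.44 ± 0.29).

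Summed over the 18 enzymes, the normalized value was 44096 and 46167 with BCAA and 23909 and 23859 without in 769-P. In CAKI-1 the sum was 23829 and 23923 with BCAA and 18647 and 18810 without. In CPM of reads on listed genes, which scales every library to the same total, that is 905 and 967 against 493 and 486 in 769-P, and 605 and 611 against 472 and 472 in CAKI-1. The sums with BCAA lay above those without in both lines.

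**Figure D2:**
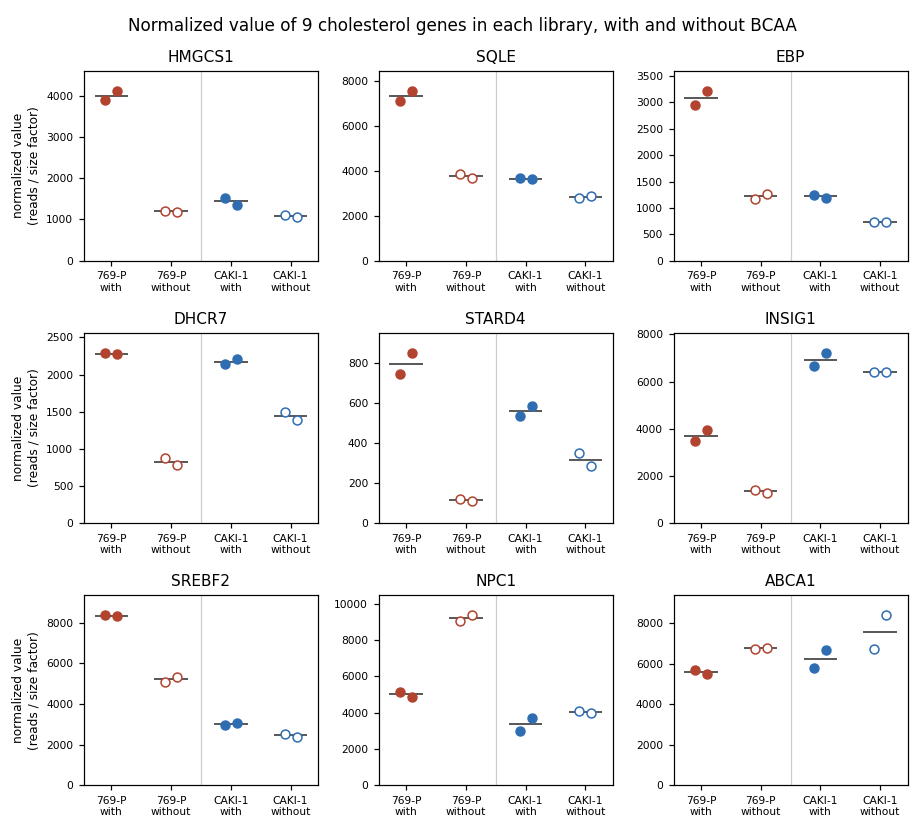
Normalized value (reads divided by the size factor of the library) of 9 cholesterol genes in each of the 8 libraries, on a linear axis that starts at 0. Filled points are libraries with BCAA, open points libraries without, red is 769-P, blue is CAKI-1 and the bar is the mean of 2; NPC1 and ABCA1 are the panels in which the open points are higher.

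The genes that govern the pathway moved in both directions in 769-P, where SREBF1, SREBF2 and INSIG1 rose, INSIG2 fell and SCAP was not called. INSIG1, both a target of SREBP and a brake on it, was at 3457 and 3938 with BCAA and at 1407 and 1285 without in 769-P. In CAKI-1, its values were 6639 and 7198 with BCAA and 6421 and 6396 without. INSIG1 libraries did not overlap in either line, but the rise was called only in 769-P (log2 1.46 ± 0.07) and not in CAKI-1 (0.11 ± 0.06, adjusted p = 0.24). Non-overlap of 2 against 2 libraries is only a description, here and for the other genes. It also held for SCAP in CAKI-1 (0.03 ± 0.06), and its share over all genes was not counted. Among the members in CAKI-1, INSIG1 had the highest value per kilobase of exon in both conditions. INSIG2, the related protein that is not a classic SREBP target, went the other way in 769-P, with 1435 and 1502 with BCAA and 1677 and 1812 without. Its CAKI-1 libraries overlapped, at 450 and 502 with BCAA and 513 and 489 without. The INSIG2 fall in 769-P was small (-0.25 ± 0.07, adjusted p = 0.011) and was not called when any 1 of the 4 libraries was left out (-0.30 to -0.19), and in CAKI-1 the log2 fold change was -0.08 ± 0.11.

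SREBF2 encodes SREBP-2, the factor mainly tied to cholesterol synthesis, and its own window held the sterol regulatory letters. Its values were 8368 and 8336 with BCAA and 5093 and 5348 without in 769-P, and 2948 and 3049 against 2536 and 2383 in CAKI-1. SREBF2 rose in both lines without overlap, by log2 0.68 ± 0.05 and 0.29 ± 0.06. In CAKI-1 the adjusted p of SREBF2 was 0.0092, and under quantile normalization it was 0.051. SREBF1 encodes SREBP-1, tied mainly to fatty acid synthesis, and was at 5514 and 5782 with BCAA and 4089 and 4132 without in 769-P. In CAKI-1 its libraries held 1398 and 1860 with BCAA and 1282 and 1347 without. The 2 libraries of CAKI-1 with BCAA differed from each other by more than the lower of them differed from those without, and the change was called in 769-P (0.46 ± 0.05) but not in CAKI-1 (0.29 ± 0.11, adjusted p = 0.095). The CAKI-1 value of SREBF1 was 0.50 without CAKI-1 with BCAA replicate 1 and 0.09 without replicate 2, and it was called under median centring (adjusted p = 0.045) and with the spread from all 8 libraries (0.041). SCAP, the escort protein, had log2 fold changes of 0.08 ± 0.06 and 0.03 ± 0.06.

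Among genes that move, store and release cholesterol, STARD4 and NPC1 went in opposite directions. STARD4, a soluble carrier that shuttles sterol between membranes and is a known SREBP-2 target, had values of 745 and 851 with BCAA and 122 and 108 without in 769-P. In CAKI-1 it held 535 and 585 with BCAA, and 349 and 286 without. Its mean with BCAA was 6.96 times that without in 769-P and 1.77 times in CAKI-1, with log2 fold changes of 2.79 ± 0.13 and 0.82 ± 0.13. That was the largest rise of any member in 769-P, while in CAKI-1 it was close to those of ACAT2 and EBP and, at 0.68 without CAKI-1 without BCAA replicate 2, below EBP at 0.75. NPC1, the membrane protein that exports lipoprotein cholesterol from lysosomes, was at 5144 and 4878 with BCAA and at 9071 and 9365 without in 769-P. In CAKI-1, its values were 2975 and 3723 with BCAA and 4097 and 3953 without. Libraries with BCAA were the lower ones in both lines, and the fall was called in 769-P (-0.88 ± 0.05) and fell just short in CAKI-1 (-0.27 ± 0.09, adjusted p = 0.056). In CAKI-1 it was -0.11 without the first library with BCAA and -0.44 without the second, and was called with the spread from all 8 libraries (adjusted p = 0.023), as by edgeR and DESeq2. NPC2, the soluble partner that hands cholesterol to NPC1 inside the lysosome, was called in neither line (0.05 ± 0.07 and -0.12 ± 0.07). SOAT1, which esterifies cholesterol for storage in lipid droplets, rose by log2 0.36 ± 0.04 in 769-P and was not called in CAKI-1 (0.16 ± 0.06).

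None of the genes of export and receptor degradation was called higher in either line. On the wider list described below, the LXR receptor NR1H3 and the LXR target LPCAT3 rose in 769-P (log2 0.70 ± 0.14 and 0.57 ± 0.11). Neither was called in CAKI-1 (-0.07 ± 0.15 and 0.14 ± 0.15). The receptor NR1H2 was called in neither line (-0.11 ± 0.05 and -0.14 ± 0.06), and ABCG4 had very low values. ABCA1, which loads cholesterol onto apolipoprotein acceptors, had values of 5709 and 5475 with BCAA and 6719 and 6785 without in 769-P. Its CAKI-1 libraries held 5804 and 6682 with BCAA, and 6734 and 8386 without. ABCA1 was lower with BCAA in every library of both lines, by a log2 fold change of -0.27 ± 0.05 in 769-P, where it was called, and of -0.27 ± 0.10 in CAKI-1, where it was not (adjusted p = 0.074). The CAKI-1 value was -0.43 without the first library lacking BCAA and -0.11 without the second, and it was called with the spread from all 8 libraries (adjusted p = 0.035) and by edgeR (0.048). In 769-P, leaving out either library without BCAA gave -0.28 and -0.27 and ended the call (adjusted p of 0.065 and 0.074), and with the spread from the other 7 libraries the call ended without any 1 of the 4. MYLIP was at 133 and 158 with BCAA and at 119 and 95.4 without in 769-P, and at 159 and 199 against 158 and 167 in CAKI-1. MYLIP libraries overlapped in CAKI-1, and it was called in neither line (0.44 ± 0.20 and 0.13 ± 0.17). ABCG1 had 6 and 2 reads with BCAA and 1 and 1 without in 769-P, too few for a fold change.

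Set side by side, the 21 SREBP-driven genes, a chosen list that leaves out SREBF2 and NPC1, had a median log2 fold change of 0.90 in 769-P. In limma, 19 of them were higher and none lower there. In CAKI-1 the median was 0.24, with 8 higher and none lower. The 3 genes of efflux and receptor degradation had none higher and 1 lower in 769-P, and none called in CAKI-1, where 2 were tested. The 10 members outside the SREBP-driven genes, with the SREBP factors among them, had 3 higher and 3 lower in 769-P (median 0.22), and 1 higher of 9 in CAKI-1 (median 0.03). With 20.3% of all genes higher and 18.2% lower in 769-P, and 10.8% higher in CAKI-1, the counts of these 2 small groups were near the background. LPIN1, a phosphatidate phosphatase of glycerolipid synthesis that SREBP also drives, was at 1554 and 1623 with BCAA and 891 and 821 without in 769-P. In CAKI-1 it was at 1219 and 1221, and 1097 and 1019. LPIN1 libraries did not overlap in either line, and its rise was called in 769-P (0.89 ± 0.07) and not in CAKI-1 (0.21 ± 0.08, adjusted p = 0.091).

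Whether the response differed between the lines was tested as the interaction of condition and line over all 8 libraries. Of the 30 genes tested, 17 had a BCAA effect further up in 769-P than in CAKI-1 and 1, NPC1, further down, where 10.9% and 10.1% of the 19406 genes tested did so. STARD4 differed most, by log2 1.96 ± 0.19, followed by INSIG1 with 1.35 ± 0.10 and HMGCS1 with 1.33 ± 0.10. In total 13 of the 18 enzymes differed, with a median difference of 0.60 over the 18. FDPS was not called, with a difference of 0.01 and a 95% confidence interval from -0.18 to 0.20, nor was ABCA1, with 0.00 and an interval from -0.27 to 0.26. For SREBF1 (0.16, from -0.13 to 0.46), LSS (0.37, from -0.20 to 0.94) and SC5D (0.20, from -0.08 to 0.47) the intervals held both 0 and sizes like those of called genes. Without CAKI-1 with BCAA replicate 2, the differences of SREBF1 (0.37) and SOAT1 (0.23) were called, with adjusted p of 0.0079 and 0.039. The MVD difference (0.34 ± 0.11, adjusted p = 0.043) was the weakest of those called and fell short with thinned reads (0.27, adjusted p = 0.11), a pseudocount of 0.1 and median centring (adjusted p = 0.057 in both). The MVD call also ended when any 1 of 6 of the 8 libraries was left out, with differences from 0.24 to 0.40 (each of the 4 of 769-P, CAKI-1 with BCAA replicate 1 and CAKI-1 without BCAA replicate 2). For MVK, leaving out 769-P with BCAA replicate 2 gave a difference of 0.76 that was not called (adjusted p = 0.058).

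**Figure D3:**
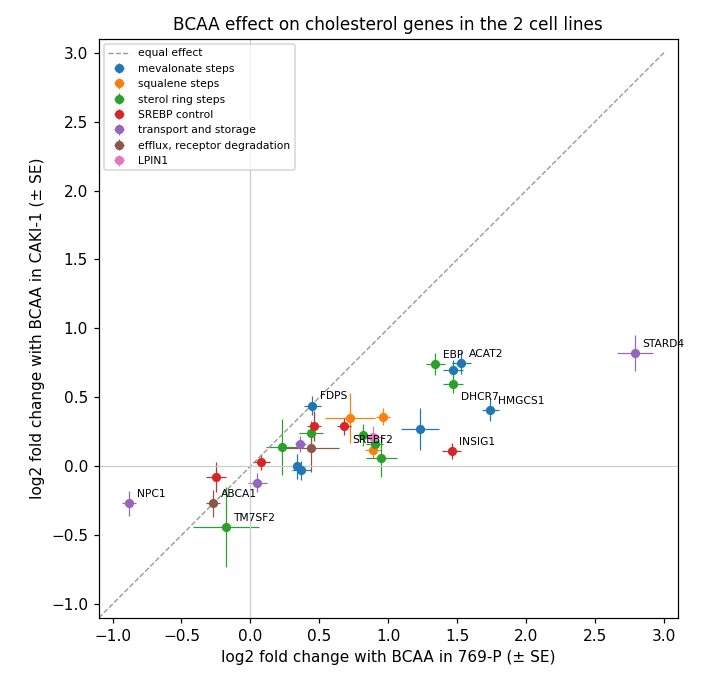
Log2 fold change with BCAA in 769-P (horizontal) against that in CAKI-1 (vertical) for the 30 genes tested in both lines, with standard errors as bars and colours by role. The dashed line marks equal effects, and STARD4, INSIG1 and HMGCS1 lie farthest below it, with log2 fold changes of 2.79, 1.46 and 1.74 in 769-P.

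A wider list of 39 genes around sterol metabolism, none of them among the 31, was read in the same fits. In 769-P, 14 of the 36 tested were higher and 6 lower with BCAA, and in CAKI-1 9 of 34 were higher and 4 lower. Over all genes tested the shares were 20.3% and 18.2% in 769-P and 10.8% and 9.05% in CAKI-1, so the lower counts were near the background. The 10 genes described next were called in both lines. LBR, a lamin-binding protein of the inner nuclear membrane that can carry out the same sterol reduction as TM7SF2, rose by log2 1.03 ± 0.05 in 769-P and 0.69 ± 0.06 in CAKI-1. TMEM97, a sterol-responsive ER protein that binds NPC1, rose by 1.05 ± 0.08 and 0.69 ± 0.09. On the isoprenoid branch, PDSS1, which makes the side chain of coenzyme Q, rose by 0.80 ± 0.10 and 0.78 ± 0.11, and NUS1, a subunit of the enzyme for dolichol, by 0.49 ± 0.05 and 0.33 ± 0.06. The ER proteins ERLIN1 and RNF145, of the sterol-dependent degradation machinery, rose by 0.52 ± 0.06 and 0.65 ± 0.05 in 769-P and both by 0.34 ± 0.06 in CAKI-1. NCEH1, a cholesteryl ester hydrolase, rose by 0.81 ± 0.05 and 0.44 ± 0.06, and GRAMD1A, which moves sterol from the plasma membrane to the ER, fell in both lines, with -0.46 ± 0.05 and -0.36 ± 0.07.

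Among the lipoprotein receptors on that list, LRP8 rose in both lines, by log2 0.38 ± 0.06 in 769-P and 0.69 ± 0.08 in CAKI-1, and VLDLR was called in opposite directions. VLDLR had values of 1402 and 1364 with BCAA and 2857 and 2866 without in 769-P. In CAKI-1 it was at 1950 and 1858 with BCAA, and at 1572 and 1544 without. It thus fell in 769-P (-1.05 ± 0.06) and rose in CAKI-1 (0.29 ± 0.07, adjusted p = 0.012), and the difference between the lines was -1.34 ± 0.09. LRP8 differed between the lines in the same sense, by -0.32 ± 0.09, and SCARB1, a receptor for high-density lipoprotein, in the opposite sense, by 0.65 ± 0.10. SCARB1 rose in 769-P (0.86 ± 0.07) and was not called in CAKI-1 (0.20 ± 0.07, adjusted p = 0.064), and was singled out after its values were seen.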

How the data were processed

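RNA-seq libraries of 769-P and CAKI-1 cells (2 per condition and line) were grouped by the treatment and line in their labels. The authors deposited a signal per gene and library, 1 table per line, made of reads divided by a size factor. Every value (100%, within 0.01 reads) was a whole number of reads after multiplication by the median-of-ratios factor. The submitters' processing notes name Trim Galore, TopHat2 2.1.0, SAMtools 1.3.1, HTSeq 0.6.0, DESeq, DESeq2 and hg38, and whether counting used strand is not given in the sources used here. Reads on listed genes ranged from 30979773 to 64256834, and replicates differed by more than sampling noise (chi-square per degree of freedom 3.36 to 12.9).

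Identifiers were matched to GENCODE 29 (GRCh38), which named 25032 of 25431 genes in 769-P and 23881 of 24190 in CAKI-1. Genes whose mean value reached 1 were tested with limma 3.58.1 (trend, R 4.3.3) on log2(value + 1) within each line, and with an interaction term over the 8 libraries, with Benjamini-Hochberg adjustment over all genes at 0.05. The scale understates changes of genes with few reads. All 31 members are named. Values per library are given for up to 4 members per role group that were called in both lines or differed between them, by the larger log2 fold change, and for ABCA1, ABCG1, MYLIP, SREBF1, SREBF2, INSIG1, INSIG2 and LPIN1. Of the related list, genes called in both lines are named, and SCARB1 and the LXR genes were added after their values were seen. Members and lists were chosen with earlier results of these data known, and all counts over lists are descriptions.

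Alternatives changed the pseudocount (0.1 or 5), the filter, the scaling (median centring, CPM, quantile normalization), the threshold (adjusted p under 0.01, fold change of at least 1.5), the replicate block, the spread, the depth (thinned reads), the libraries and the test (edgeR 4.0.16 and DESeq2 1.42.0 on recovered reads). A limma fit of the same form was tried on simulated reads with a fixed spread and changes of a single size. Smaller changes and uneven spread were not covered.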

Additional observations from a re-analysis of the deposited data

Results flagged for a closer look

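The BCAA effect differed between the lines for 18 of the 30 members tested, by the limma interaction test with Benjamini-Hochberg adjustment over 19406 genes. As log2 effect in 769-P minus that in CAKI-1, the mevalonate genes differed by 1.33 (HMGCS1), 0.96 (MVK), 0.78 (ACAT2), 0.77 (IDI1), 0.40 (PMVK) and 0.34 (MVD). The squalene genes differed by 0.76 (FDFT1) and 0.60 (SQLE). Of the later sterol enzymes, HSD17B7 differed by 0.89, DHCR7 by 0.87, MSMO1 by 0.74, and NSDHL and EBP each by 0.60. INSIG1 differed by 1.35, SREBF2 by 0.39 and LPIN1 by 0.69. STARD4 differed by 1.96 and NPC1, in the other direction, by -0.61. Every library with BCAA was deeper than every library without in 769-P, while the depths overlapped in CAKI-1. With all 8 libraries thinned to the same number of reads, 16 members differed upward and 1 downward, where 10.4% and 10.5% of all genes did so.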

How the results depend on the processing

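Each group has 2 libraries, which limits every test here, and the scalings shifted the all-gene median by at most 0.04. In 769-P, 22 members were higher with edgeR, DESeq2, each scaling and thinned reads, and fewer when 1 library was left out, as over all genes. The 3 lower calls became 1 at a fold change of at least 1.5, and they were also fewer when 1 library was left out. In CAKI-1, the 9 higher calls became 5 at a fold change of at least 1.5. Leaving out any 1 library left 1 residual degree of freedom in limma, and calls were lost across the genome. The spread from the other 7 libraries was chosen after seeing the data and assumes that the lone library varies like the others. Higher calls in CAKI-1 were 13 under median centring and 12 with the spread from all 8 libraries. Over all genes tested, 12.4% and 13.7% were higher in those settings. No member was called lower in CAKI-1 in the main fit. With the spread from all 8 libraries and with edgeR 2 were, and 1 with DESeq2. Over all genes tested, 11.5%, 10.1% and 7.94% were lower in those settings, so these counts did not exceed the background. For the difference, 15 to 19 members lay upward without 1 library, and 1 downward. The median of the SREBP-driven genes in 769-P (0.90) was 0.85 under quantile normalization and 0.86 to 0.94 without 1 library, and in CAKI-1 (0.24) 0.28 under median centring and 0.21 to 0.29 without 1 library. The replicate numbers did not pair the libraries (correlation of same-numbered deviations -0.0148 in 769-P and 0.02 in CAKI-1). A replicate block in limma gave 22 higher and 3 lower in 769-P, and 17 and 1 for the difference. In CAKI-1 it gave 10 and 2 (SREBF1 added, with adjusted p = 0.045, and ABCA1 and NPC1, with 0.012 and 0.044). Over all genes, 9.99% were higher and 8.45% lower in CAKI-1 with the block.

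Changes of sign occurred only for effects that were not called. NPC2 in 769-P was -0.02 to 0.12 without 1 library. In CAKI-1, PMVK was 0.01 under median centring, MVD was -0.03 under quantile normalization, -0.01 with edgeR and -0.10 to 0.10 without 1 library (-0.07 among them). Without 1 library, HSD17B7 was -0.04 to 0.16, MYLIP -0.03 to 0.29 and INSIG2 -0.15 to 0.00. Of the differences, FDPS was -0.01 with thinned reads and -0.05 to 0.07 without 1 library, and ABCA1 was 0.01 with edgeR and DESeq2 and -0.16 to 0.16 without 1 library. Without 1 library, the difference was -0.01 to 0.17 for CYP51A1, -0.04 to 0.37 for SREBF1 and -0.02 to 0.11 for SCAP. The cause was not tested.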
